A study of Homo sapiens with 10 samples.

Results

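The 6 monoculture arrays of this series set a monocytic cell line, THP1, against 2 related colon cancer cell lines, HCT116 and Hke3, across all genes. They are 2 THP1 arrays and 4 colon cancer arrays out of 10 arrays in all. The other 4 arrays are HCT116 or Hke3 cocultured with THP1 and are used here as a check for THP1 RNA and in 1 alternative fit of all 10 arrays. THP1 is a human monocytic leukaemia line, which the labels call macrophages. HCT116 is a human colorectal carcinoma line, and Hke3 was derived from it. Each line was profiled with vitamin D3 for 24 h and alone, with 1 array per condition, on 1-colour Affymetrix arrays hybridised with biotin-labelled cRNA. The members are the 2 arrays titled THP1_VitD3 and THP1_alone and the 4 arrays titled HCT116_VitD3, HCT116_alone, Hke3_VitD3 and Hke3_alone, chosen by title. The source field of Hke3_VitD3 says no treatment. Its other labels name vitamin D3, and it was kept as treated. THP1 was grown in RPMI and the colon cancer lines in MEM, so culture medium and cell type cannot be told apart. THP1 stands for the monocytic side with 1 leukaemia line, and both colon cancer lines descend from 1 tumour.

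Monocytes are white blood cells that circulate, sense microbes through pattern receptors, engulf particles, and mature into macrophages or dendritic cells in tissue. Their identity is set by transcription factors such as PU.1, C/EBP alpha and IRF8, and they carry the pan-leukocyte phosphatase CD45 and the beta-2 integrins. Colon epithelial cells form a polarised sheet held together by tight junctions, adherens junctions and desmosomes on a keratin scaffold, under transcription factors such as ELF3, KLF5, GRHL2 and SOX9. Colorectal tumour cells and tumour macrophages exchange growth factors and cytokines, so the ligand and receptor genes of both sides are described as well.

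Values are log2 RMA intensities, 1 probe set per gene, with 19775 genes in all. The median of all values was 6.18 log2, and a level below it is called dim here, since no detection call comes with these data. Probe sets differ in brightness, so levels are compared between arrays and not between genes, and a difference from a dim level is approximate. Within a line, the array with vitamin D3 and the array alone correlated at 0.991 (THP1), 0.998 (HCT116) and 0.998 (Hke3) over all genes. THP1 arrays correlated with colon cancer arrays at 0.855 to 0.867. The ACTB 3' minus 5' probe set difference, which grows as RNA is degraded, was 0.09 with vitamin D3 and -0.01 alone in THP1, 0.25 and 0.30 in HCT116, 0.72 and 0.94 in Hke3. The Hke3 arrays thus stood apart on this measure. For GAPDH the same difference was small on all arrays. It was 0.04 with vitamin D3 and 0.06 alone in Hke3, -0.10 on both HCT116 arrays, and -0.11 and -0.10 in THP1. The part of RNA quality in the results was not tested beyond giving the counts without the Hke3 arrays.

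Of the 19775 genes, 9658 (48.8%) differed between THP1 and the mean of HCT116 and Hke3 at an adjusted p under 0.05 by limma's moderated test, 4062 (20.5%) higher and 5596 (28.3%) lower in THP1. Those that also differed at least 4-fold numbered 1702 (8.61%), of which 783 (3.96%) were higher and 919 (4.65%) were lower in THP1. The median difference over all genes was -0.03 log2. Both THP1 arrays lay above all 4 colon cancer arrays for 4779 genes (24.2%) and below all 4 for 6381 genes (32.3%). With no replicates, the error is the disagreement between lines in their vitamin D3 difference, with 2 residual degrees of freedom. The test moderates it towards the spread shared by all genes, with 3.84 prior degrees of freedom. These p-values thus measure the spread between these arrays, not between independent cultures. Because so many genes pass, counts of genes past the threshold are read against these shares. Set against each colon line, THP1 differed in 8976 genes (45.4%) from HCT116 and in 9230 genes (46.7%) from Hke3. These contrasts share the THP1 arrays. In both, 7781 genes were called with the same sign and 42 with opposite signs.

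**Figure D1:**
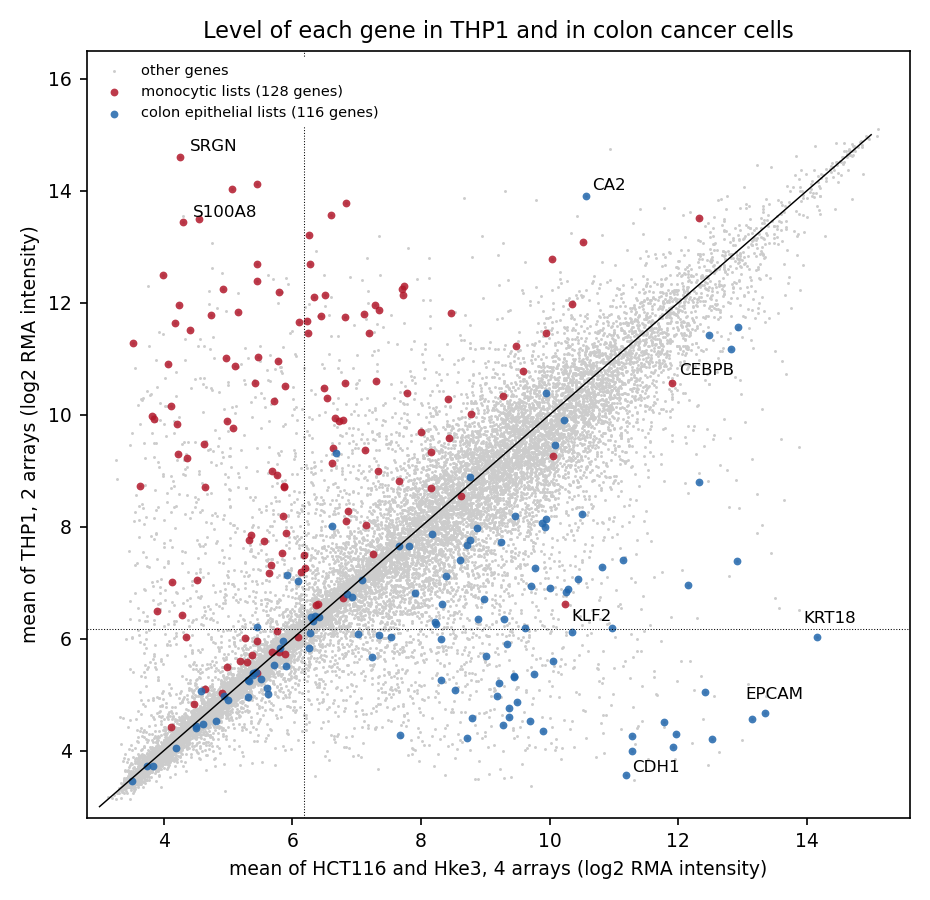
Mean log2 RMA intensity of each of the 19775 genes in THP1 (vertical axis, 2 arrays) against HCT116 and Hke3 (horizontal axis, 4 arrays). Red points are the 128 genes of the monocytic lists and blue points the 116 genes of the colon epithelial lists, the solid line marks equal levels, and the dotted lines mark the median of all values, 6.18. Most red points lie above the solid line and most blue points on it or below it, with KLF2 and CEBPB (red, below the line) and CA2 (blue, above it) among the exceptions.

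Over the lists of monocytic genes, 110 of 128 measured genes were higher and 3 were lower in THP1, with a median difference of 2.87 log2. Of these, 77 were at least 4-fold higher. Over the colon epithelial lists, 77 of 116 measured genes were lower and 8 were higher in THP1, with a median of -1.50 log2, and 49 were at least 4-fold lower. Without both Hke3 arrays the counts were 105 higher and 2 lower among the monocytic genes and 74 lower and 8 higher among the epithelial genes. Without both HCT116 arrays they were 105 higher and 3 lower, and 76 lower and 7 higher. All lists were chosen for what their genes are known to mark, with earlier results of these data known.

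**Figure D2:**
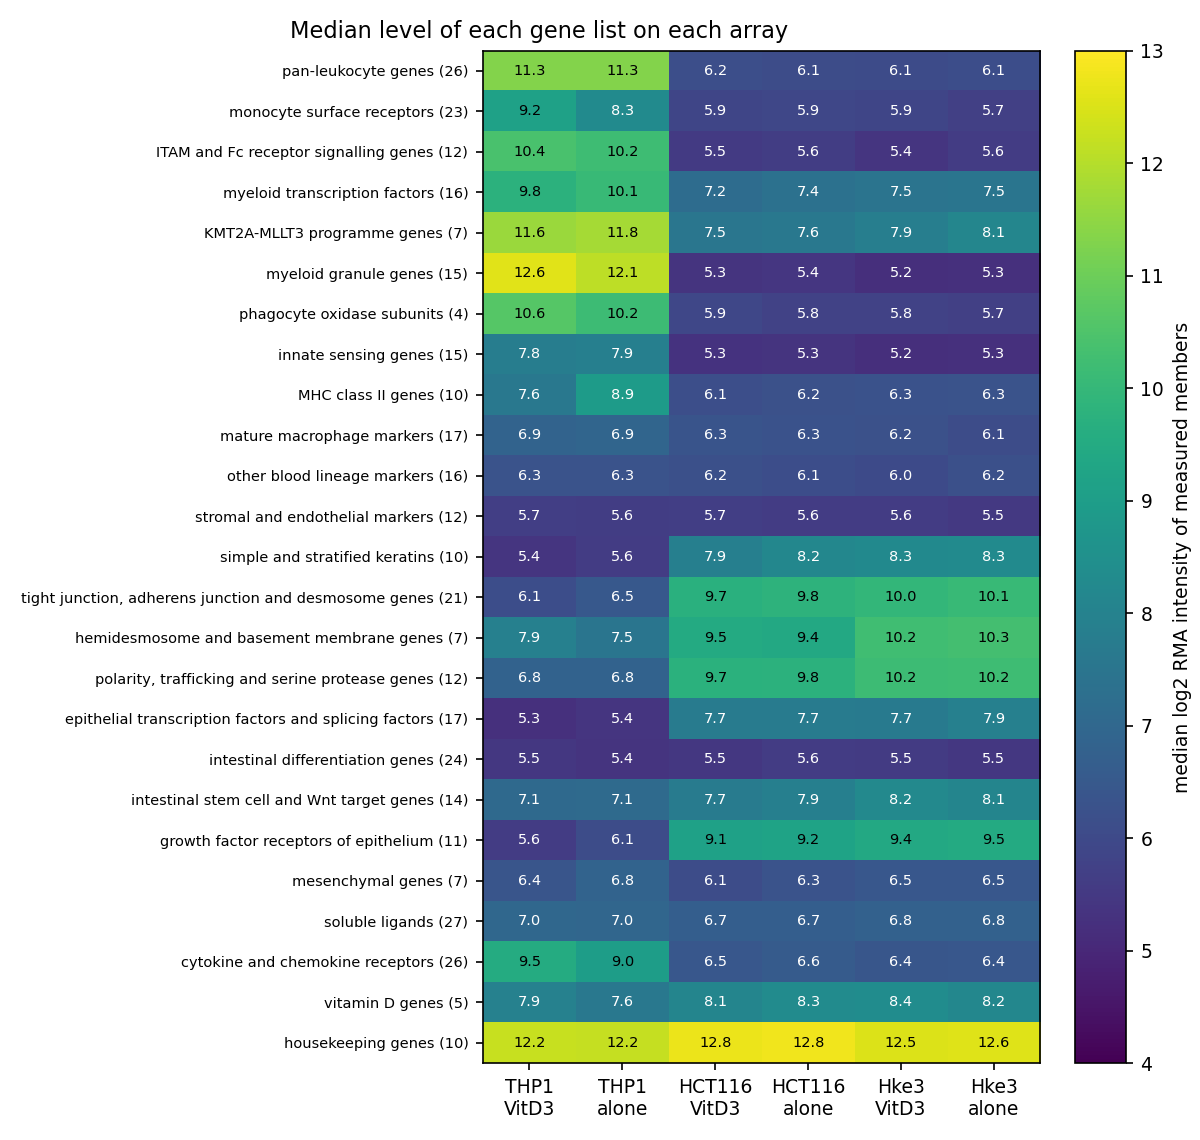
Median log2 RMA intensity of each gene list (rows, with the number of measured genes) on each of the 6 arrays (columns). The pan-leukocyte, ITAM, granule and oxidase lists are bright on both THP1 arrays and dim or near dim on the 4 colon cancer arrays, the junction and polarity lists are the reverse, and the lists of other blood lineages, stroma and intestinal differentiation look alike on all 6.

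All 26 pan-leukocyte genes were higher in THP1 (median difference 5.07 log2, 21 at least 4-fold), with adjusted p from 1.69e-07 to 0.00992. SRGN, the core protein of the serglycin proteoglycan that packs leukocyte granules, showed the largest difference of any gene. It read 14.72 and 14.50 in THP1, against 4.24 and 4.27 in HCT116 and 4.34 and 4.19 in Hke3 (with vitamin D3 and alone in each line). That is near the top of the array's scale in THP1 and among the dimmest values in the colon cancer lines, a difference of 10.35 ± 0.09 log2 (SE of the fit). PTPRC, which encodes CD45, read 11.57 and 11.70 in THP1, against 4.43 and 4.11 in HCT116 and 4.11 and 4.06 in Hke3, a difference of 7.45 ± 0.11. LAPTM5, a lysosomal membrane protein of blood cells, read 13.56 on both THP1 arrays, against 6.48 to 6.64 on the colon cancer arrays. ITGB2, the beta-2 integrin chain, read 12.98 and 12.39 in THP1, against 5.22 to 5.61 on the colon cancer arrays. None of these groups overlapped. Among the other members, the actin regulators HCLS1 (7.73 ± 0.09) and DOCK2 (6.84 ± 0.07) and the tetraspanin CD37 (7.04 ± 0.18) differed as strongly. The smallest difference was that of CD48, a ligand of lymphocyte receptors, at 0.43 ± 0.08, with dim values of 5.49 and 5.72 in THP1 and 4.95 to 5.31 in the colon cancer lines.

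Of the monocyte surface receptors, 18 of 23 were higher and 0 were lower in THP1 (median 2.51 log2). CCR2, the receptor that draws monocytes towards CCL2, read 11.27 and 11.75 in THP1, against 4.51 and 4.58 in HCT116 and 4.03 and 4.50 in Hke3, a difference of 7.10 ± 0.11. CCR1, a receptor for CCL3 and CCL5, differed by 6.05 ± 0.32 and CD36, a scavenger receptor for oxidised lipids, by 6.03 ± 0.08. CD4, which human monocytes carry as well as T cells, differed by 3.75 ± 0.08. CD14, the lipopolysaccharide co-receptor that defines classical monocytes, read 13.77 with vitamin D3 and 8.29 alone in THP1, against 5.30 to 5.64 on the colon cancer arrays. Its THP1 values lay above all colon cancer values but far from each other. The difference of 5.57 ± 1.13 (adjusted p = 0.00769) became 2.84 without THP1_VitD3 and 8.30 without THP1_alone. Those fits leave THP1 with 1 array, so the spread between its arrays drops out of their error. Of the 5 that did not pass, TREM1, a receptor that amplifies inflammation, read 9.36 with vitamin D3 and 4.72 alone in THP1, and C5AR1, the complement C5a receptor, read 9.15 and 7.04. The others were CD86 (0.38), ITGAM (-0.06) and FPR2 (-0.07). Each array reads a whole culture, so fewer cells with a transcript and less of it per cell cannot be told apart.

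All 12 measured genes of ITAM and Fc receptor signalling, the pathway by which phagocytes read antibody-coated targets, were higher in THP1 (median 3.28 log2). TYROBP, the adaptor DAP12, read 11.96 and 11.73 in THP1, against 5.10 and 5.23 in HCT116 and 5.33 and 4.98 in Hke3, a difference of 6.68 ± 0.12. FCER1G, the Fc receptor gamma chain, differed by 6.94 ± 0.11, and the low-affinity receptor FCGR2A by 4.84 ± 0.16. The downstream kinase BTK differed by 5.19 ± 0.08 and the adaptor LCP2 by 4.69 ± 0.15. SYK, the kinase that binds phosphorylated ITAMs, read 12.06 and 11.54 in THP1, against 7.95 and 8.08 in HCT116 and 6.83 and 5.61 in Hke3. It is the only monocytic list gene that was lower in Hke3 than in HCT116 by at least 2-fold, by means of 6.22 and 8.01. FCGR1A, the high-affinity IgG receptor, passed at 0.32 ± 0.08 with values of 4.26 and 4.60 in THP1, which are dim.

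The promoters of these genes were searched for the core of the PU.1 site, GAGGAAGT, on both strands, since PU.1 is the textbook regulator of the ITAM, granule and integrin genes. Of 98 monocytic list genes matched to a RefSeq promoter window of 300 bases (GRCh38.p14), 14 (14.3%) held it, against 2 of 72 epithelial list genes (2.78%) and 694 of 27305 promoters in all (2.54%). The 4 below were picked for bearing the match upstream of the gene start, for being at least 4-fold higher in THP1 and for having different roles, an adaptor, a granule protease, a kinase and a scaffold. Each is the 250 bases before the gene start on the gene's strand, and capitals mark the match, which reads ACTTCCTC where it lies on the opposite strand. TYROBP lies at chr19:35908296-35908545 (minus strand), PRTN3 at chr19:840749-840998 (plus strand), BTK at chrX:101390797-101391046 (minus strand) and LCP2 at chr5:170297778-170298027 (minus strand).
TYROBP: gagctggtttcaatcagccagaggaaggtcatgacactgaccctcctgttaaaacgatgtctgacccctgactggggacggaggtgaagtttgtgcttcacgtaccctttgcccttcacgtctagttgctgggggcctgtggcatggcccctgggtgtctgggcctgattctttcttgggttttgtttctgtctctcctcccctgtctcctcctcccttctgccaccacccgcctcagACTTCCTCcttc
PRTN3: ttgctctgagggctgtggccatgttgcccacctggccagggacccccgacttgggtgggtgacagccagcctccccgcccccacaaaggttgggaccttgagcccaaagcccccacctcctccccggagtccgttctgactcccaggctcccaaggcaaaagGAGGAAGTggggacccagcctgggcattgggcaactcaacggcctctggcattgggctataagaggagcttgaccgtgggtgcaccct
BTK: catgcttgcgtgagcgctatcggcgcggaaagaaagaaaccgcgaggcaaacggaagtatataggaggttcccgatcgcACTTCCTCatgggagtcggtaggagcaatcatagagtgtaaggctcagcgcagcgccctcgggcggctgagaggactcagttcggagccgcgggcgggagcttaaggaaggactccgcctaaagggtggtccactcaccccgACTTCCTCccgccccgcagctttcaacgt
LCP2: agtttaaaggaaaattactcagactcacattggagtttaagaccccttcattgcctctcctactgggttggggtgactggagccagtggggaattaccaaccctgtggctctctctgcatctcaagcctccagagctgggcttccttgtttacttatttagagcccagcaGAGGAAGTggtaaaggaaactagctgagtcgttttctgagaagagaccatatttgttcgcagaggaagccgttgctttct
BTK holds 2 matches and the others 1. The TYROBP match starts 12 bases before the gene start, the PRTN3 match 88 bases before it and the LCP2 match 80 bases before it. A match of letters is not a bound site, and no binding was measured. Other searched cores stood nearer to their background. The AP-1 core TGANTCA was in 11.2% of monocytic, 13.9% of epithelial and 7.76% of all windows, and the HNF4 core CAAAGTCCA was in 0 of 98, 1 of 72 and 0.359% of all. The GRHL core AACCGGTT was in 0 of 98, 0 of 72 and 0.117% of all windows.

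Among myeloid transcription factors, 12 of 16 were higher and 2 were lower in THP1 (median 2.52 log2). SPI1, which encodes PU.1, read 7.84 and 7.68 in THP1, against 5.38 and 5.50 in HCT116 and 5.21 in both Hke3 arrays, a difference of 2.43 ± 0.09. It is given here for the promoter search and was picked after its values were seen. TFEC, a MiT family factor of macrophages, differed most, by 6.17 ± 0.13. IRF8, which drives monocyte fate, read 11.65 and 11.87 in THP1, against 6.37 to 6.63 on the colon cancer arrays, a difference of 5.31 ± 0.11. The C/EBP family split. CEBPA, which opens the granulocyte and monocyte programme, read 12.03 and 11.70 in THP1, against 7.10 to 7.55 on the colon cancer arrays. CEBPB, which acts in macrophage activation and also in epithelium, was lower in THP1, at 10.74 and 10.38, against 11.66 and 11.74 in HCT116 and 12.10 and 12.13 in Hke3. CEBPE, of late granulocytes, overlapped between the groups. KLF2, a factor that restrains monocyte activation, was lower by 3.61 ± 0.09 log2, at 6.58 and 6.66 in THP1, against 9.19 and 9.56 in HCT116 and 11.02 and 11.17 in Hke3. RUNX3 (-0.08 ± 0.09) did not pass.

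Factors of blood progenitors were bright as well. MYB, which keeps progenitors dividing, differed by 4.56 ± 0.14, LMO2 by 4.67 ± 0.09, FLI1 by 4.90 ± 0.12 and GFI1 by 3.28 ± 0.14. THP1 carries the KMT2A-MLLT3 (MLL-AF9) fusion, and all 7 measured genes of the programme that this fusion drives were higher in THP1 (median 3.35 log2). ZEB2 differed by 6.06 ± 0.18, PBX3 by 4.54 ± 0.09, MEF2C by 4.42 ± 0.11 and RUNX2 by 3.35 ± 0.08. The HOXA partner MEIS1 was dim everywhere, at 4.78 and 4.87 in THP1 and 4.42 to 4.54 in the colon cancer lines. Its call (0.36 ± 0.08, adjusted p = 0.00985) was lost without HCT116_VitD3 (0.34, adjusted p = 0.052) and without Hke3_alone (0.33, adjusted p = 0.0518). Another 5 genes of the fusion list are not analysed here.

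Granule genes had the highest median difference of the monocytic lists. Of 15 measured, 11 were higher and 1 was lower in THP1, with a median of 5.76 log2. The serine proteases of azurophil granules were higher in THP1. ELANE, neutrophil elastase, read 14.11 and 13.94 in THP1, against 5.26 and 5.04 in HCT116 and 5.08 and 4.86 in Hke3, a difference of 8.96 ± 0.07. AZU1 (azurocidin) differed by 8.67 ± 0.13, PRTN3 (proteinase 3) by 7.33 ± 0.13 and CTSG (cathepsin G) by 6.96 ± 0.08. MPO, the peroxidase stored in the same granules, did not go with them, at 5.46 and 5.97 in THP1 and 5.25 to 5.47 in the colon cancer lines, and did not pass (adjusted p = 0.0884). S100A8, a calprotectin subunit, read 13.23 and 13.64 in THP1, against 4.07 to 4.46 on the colon cancer arrays, and its partner S100A9 read 10.52 and 11.22, against 4.98 to 5.16. LYZ, lysozyme, differed by 8.50 ± 0.23 and RNASE2, an antiviral ribonuclease, by 8.95 ± 0.08. LTF, a secondary granule protein, was dim on all 6 arrays, between 5.75 and 5.83. CAMP, the cathelicidin gene, read 12.61 with vitamin D3 and 7.20 alone in THP1, and its mean difference did not pass (adjusted p = 0.0656). SERPINB1, an inhibitor of the neutrophil proteases, was lower in THP1 by 0.80 ± 0.15 log2 and was bright in all 3 lines.

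The phagocyte oxidase, which makes superoxide, was measured through 4 subunits, and all were higher in THP1. The catalytic CYBB read 10.34 and 10.16 in THP1, against 5.57 to 5.79 on the colon cancer arrays. Its partner CYBA was bright on both sides and differed by 1.20 ± 0.08. The cytosolic NCF4 differed by 5.15 ± 0.18 and NCF1 by 2.84 ± 0.42. NCF1 has near-identical pseudogenes, so its probe set may read those too. Without THP1_VitD3 the NCF1 difference was 1.86, and without THP1_alone it was 3.83.

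Of 15 innate sensing genes, 12 were higher and 0 were lower in THP1 (median 2.50 log2). PYCARD, the inflammasome adaptor ASC, read 12.32 and 12.06 in THP1, against 5.70 to 5.86 on the colon cancer arrays, a difference of 6.40 ± 0.11. TLR2, which senses bacterial lipoproteins, differed by 5.45 ± 0.07. TLR4 differed by 2.50 ± 0.08 and its co-receptor LY96 (MD-2) by 5.09 ± 0.35. The inflammasome sensors NLRP3 (4.07 ± 0.14) and NLRC4 (2.89 ± 0.09) and the protease CASP1 (3.99 ± 0.13) were higher too. TLR5 (0.24), TLR6 (0.08) and AIM2 (0.13) overlapped with the colon cancer arrays and did not pass.

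MHC class II genes, which present antigen to T helper cells, were higher in THP1 for 8 of 10 members (median 1.70 log2) and differed between the THP1 arrays. HLA-DRA read 8.96 with vitamin D3 and 12.06 alone in THP1, against 5.54 and 5.56 in HCT116 and 6.19 and 6.21 in Hke3. Every THP1 value was above every colon cancer value. The invariant chain CD74 differed by 5.78 ± 0.16 and HLA-DRB1, whose probe set may read near-identical paralogs, by 4.27 ± 0.18. HLA-DPA1 read 6.73 with vitamin D3 and 9.04 alone in THP1, and its difference of 1.99 ± 0.45 became 3.05 without THP1_VitD3 and 0.92 without THP1_alone. The calls of 2 weaker members rested on single arrays. HLA-DPB1 (1.06 ± 0.32) was lost without HCT116_alone (adjusted p = 0.105) and without Hke3_alone (adjusted p = 0.0859), and moved to 0.30 without THP1_alone. HLA-DMB (0.27 ± 0.08) was lost without any 1 of 5 arrays, all but THP1_VitD3, at 0.23 to 0.31 log2. CIITA, the class II transactivator, was dim on all 6 arrays, at 5.72 and 5.75 in THP1 and 5.84 to 5.94 in the colon cancer lines.

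**Figure D3:**
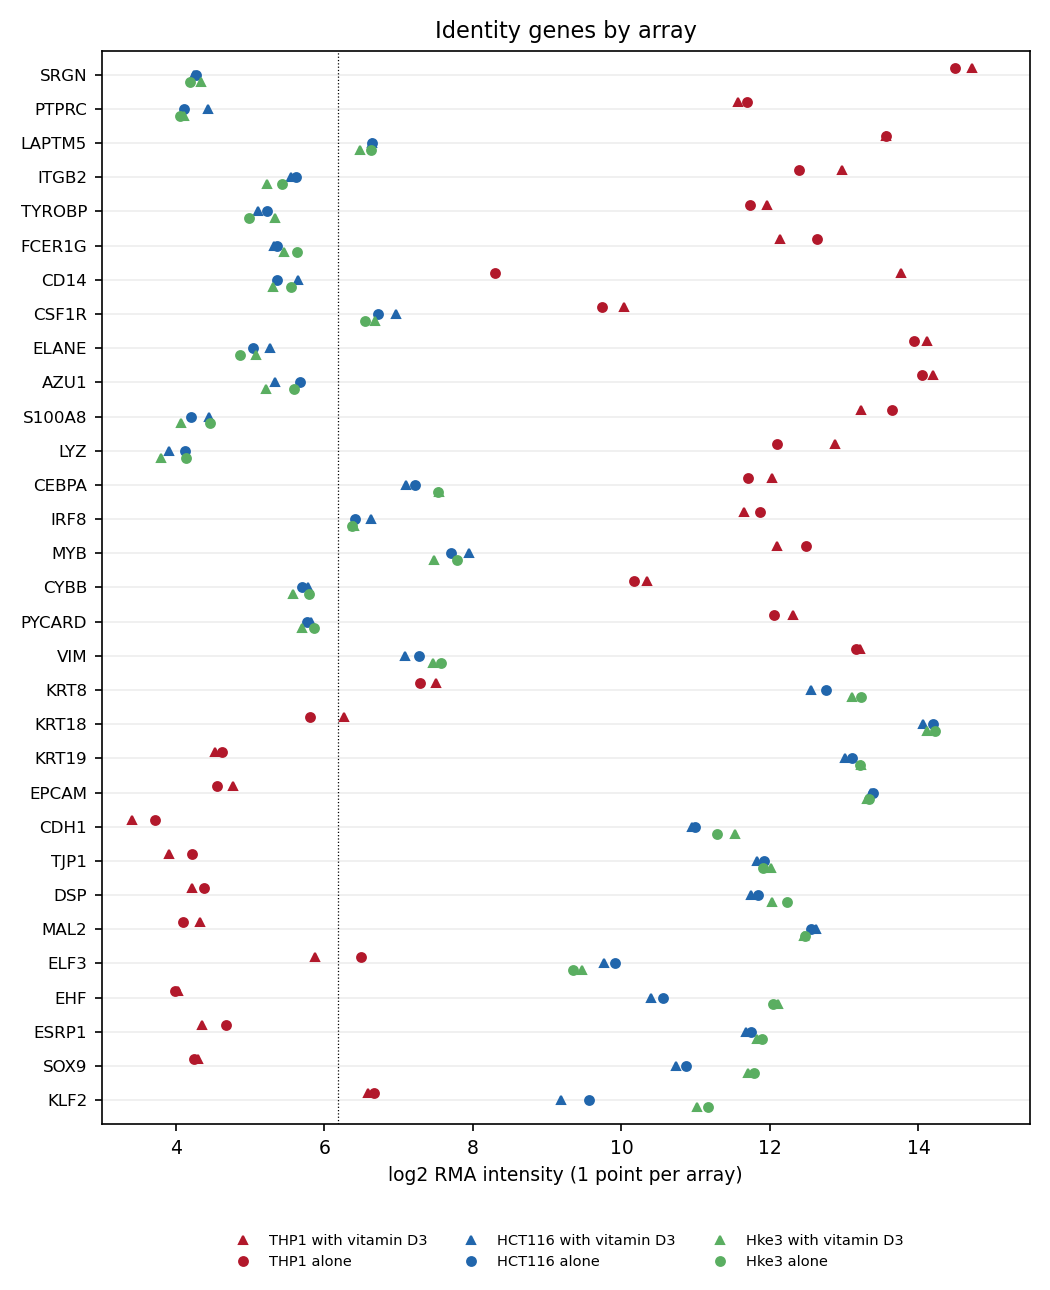
Log2 RMA intensity (horizontal axis) of 31 identity genes (rows) on each of the 6 arrays, with triangles for arrays with vitamin D3, circles for arrays alone, and the dotted line at 6.18. From SRGN down to VIM both THP1 points lie right of all colon cancer points, and from KRT8 down to KLF2 they lie left of them. CD14 is the gene whose THP1 points lie farthest apart.

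The label of macrophages was checked against markers of mature macrophages, of which 9 of 17 were higher and 1 was lower in THP1, with a median of 0.34 log2. CHI3L1, a chitinase-like secreted protein, had the second largest difference of all genes, at 13.44 and 13.65 in THP1, against 4.39 and 4.32 in HCT116 and 4.44 and 4.02 in Hke3. GPNMB (4.80 ± 0.21), TREM2 (3.09 ± 0.13) and MMP9 (2.75 ± 0.16) were higher as well. CD163, a haemoglobin scavenger receptor, differed by 2.0 ± 0.23, and the complement genes C1QA by 2.24 ± 0.21 and C1QC by 2.09 ± 0.32. The mannose receptor MRC1 was dim on all arrays, at 3.89 and 3.85 in THP1 and 3.92 to 4.11 in the colon cancer lines. VSIG4, CCL18 and STAB1 overlapped between the groups, and the efferocytosis receptor MERTK was lower in THP1 by 1.06 ± 0.07 log2. Part of the macrophage set was thus bright in THP1 and part was dim.

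Markers of other blood lineages stood at the level of the colon cancer lines. Of 16 such genes, 0 were higher and 1 was lower in THP1, with a median of -0.02 log2. The T cell genes CD3D, CD3E and CD3G differed by -0.02, -0.10 and 0.14 log2, and the B cell gene MS4A1 by -0.04. HBB, the gene called lower, differed by -0.23 ± 0.07 (adjusted p = 0.0486) and lost its call without any 1 of the 6 arrays, at -0.24 to -0.21. Of 12 stromal and endothelial markers, 2 (16.7%) were higher and 1 (8.33%) was lower, against 20.5% and 28.3% of all genes. In both groups, 8 of the 12 were dim. ACTA2, smooth muscle actin, was lower by 0.87 ± 0.08 log2. DCN (0.27 ± 0.09) lost its call without any 1 of the 6 arrays, at 0.21 to 0.32. THY1 (0.39 ± 0.11) lost its call without HCT116_alone (0.33), Hke3_alone (0.37) or THP1_alone (0.22). COL1A1, COL3A1, PDGFRA and CDH5 did not pass.

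On the epithelial side, 8 of 10 keratins were lower and 0 were higher in THP1 (median -2.88 log2). KRT18, the type I keratin of simple epithelium, read 6.26 and 5.81 in THP1, against 14.06 and 14.20 in HCT116 and 14.12 and 14.23 in Hke3, a difference of -8.12 ± 0.14. Its partner KRT8 read 7.50 and 7.29 in THP1, against 12.55 and 12.76 in HCT116 and 13.11 and 13.23 in Hke3. KRT8 thus stayed above the dim level in THP1, while KRT19 (-8.57 ± 0.08) was dim there, at 4.52 and 4.62. KRT7 (-4.39 ± 0.08) and KRT23 (-4.20 ± 0.13) were lower too. KRT20, a marker of differentiated colon epithelium, was dim in all 3 lines and differed by -0.62 ± 0.07. The stratified keratins KRT5 and KRT14 did not pass.

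All 21 measured junction genes were lower in THP1, 12 of them at least 4-fold, with a median of -2.52 log2 and adjusted p from 1.69e-07 to 0.0232. EPCAM, an adhesion protein of simple epithelia, read 4.77 and 4.56 in THP1, against 13.37 and 13.38 in HCT116 and 13.31 and 13.33 in Hke3, a difference of -8.68 ± 0.09. CDH1, E-cadherin, read 3.40 and 3.72 in THP1, against 10.95 and 10.99 in HCT116 cells, and 11.53 and 11.28 in Hke3. The groups did not overlap for any of the 21. The tight junction scaffold TJP1 (-7.85 ± 0.10), the desmosomal linker DSP (-7.67 ± 0.08) and the claudins CLDN4 (-4.62 ± 0.09) and CLDN7 (-3.73 ± 0.08) were further members that differed strongly. Others were bright in THP1 as well. PERP, a desmosomal protein and p53 target, read 11.02 and 11.32 in THP1, against 12.57 to 13.07 on the colon cancer arrays, and DSC2 differed by only -0.62 ± 0.13. Of hemidesmosome and basement membrane genes, 6 of 7 were lower (median -1.82 log2), among them the integrins ITGA3 (-4.12 ± 0.11), ITGB4 (-3.41 ± 0.11) and ITGA6 (-3.38 ± 0.19). LAMC1, a laminin chain, overlapped between the groups.

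Among polarity, trafficking and serine protease genes, 11 of 12 were lower and 1 was higher in THP1 (median -3.43 log2). MAL2, of apical transport, read 4.33 and 4.09 in THP1, against 12.62 and 12.55 in HCT116 cells, and 12.46 and 12.48 in Hke3. The protease inhibitor SPINT2 (-5.20 ± 0.10), the recycling GTPase RAB25 (-4.77 ± 0.12) and the motor MYO5B (-4.23 ± 0.14) were lower as well. ST14, the protease matriptase that SPINT2 and SPINT1 inhibit, was the exception. It read 10.50 and 10.27 in THP1, against 9.66 and 9.64 in HCT116 and 10.20 and 10.25 in Hke3. Its THP1 values were above HCT116 but next to Hke3, and the mean difference was 0.45 ± 0.09 (adjusted p = 0.00717). The call was lost without both HCT116 arrays, with HCT116 and Hke3 as one group, with the 3 arrays of either vitamin D3 condition alone and with a minimum of 2-fold.

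Of 17 epithelial transcription and splicing factors, 13 were lower and 2 were higher in THP1 (median -1.70 log2). ELF3, an ETS factor of gut epithelium, read 5.87 and 6.49 in THP1, against 9.77 and 9.91 in HCT116 and 9.47 and 9.34 in Hke3, a difference of -3.44 ± 0.15. Its relative EHF differed by -7.28 ± 0.09 and was higher in Hke3 than in HCT116, by means of 12.08 and 10.48. ESRP1, which sets epithelial splicing, differed by -7.27 ± 0.09, SOX9 by -7.01 ± 0.08, GRHL2 by -4.20 ± 0.20 and KLF5 by -4.13 ± 0.07. The hindgut factor CDX2 was lower by 0.94 ± 0.09 log2 and CDX1 did not pass (0.00 ± 0.08). HNF4G (1.40 ± 0.10) was higher in THP1, as was ISX (0.50 ± 0.08), which was dim in all 3 lines.

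Genes of differentiated intestine did not follow the structural genes. Of 24, only 2 were lower and 3 were higher in THP1, the median was -0.04 log2, and 14 were dim in both groups. The lower share of 2 in 24 stands below the 28.3% of all genes. The enterocyte genes FABP1, SI, ALPI and CDH17, the galectin LGALS4 and the goblet cell genes MUC2, TFF3 and AGR2 did not pass, with differences of -0.10 to 0.10 log2. CA2, carbonic anhydrase 2, was higher in THP1, at 13.96 and 13.85, against 10.62 and 10.67 in HCT116 and 10.46 and 10.50 in Hke3. GPA33 (0.95 ± 0.08) and CEACAM6 (0.76 ± 0.13) were higher in THP1 too. FXYD3, an ion pump regulator, was lower by 1.08 ± 0.14 log2. MUC12 (-0.48 ± 0.13) lost its call without HCT116_alone (-0.39, adjusted p = 0.0639).

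Of 14 intestinal stem cell and Wnt target genes, 6 (42.9%) were lower and 2 (14.3%) were higher in THP1 (median -0.24 log2). Over all genes the shares were 28.3% lower and 20.5% higher. AXIN2, a feedback target of beta-catenin, read 5.70 and 5.67 in THP1, against 8.63 and 8.64 in HCT116 and 9.36 and 9.44 in Hke3. RNF43, a Wnt receptor ligase, differed by -3.44 ± 0.09 and PROM1 (CD133) by -5.18 ± 0.09. MYC and CD44 were lower but bright in all 3 lines, with differences of -1.37 ± 0.17 and -1.06 ± 0.14. LGR5 and OLFM4, markers of crypt stem cells, were dim on all 6 arrays and did not pass. LRIG1 (2.63 ± 0.22) and ASCL2 (1.23 ± 0.10) were higher in THP1.

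Among mesenchymal genes, VIM, the intermediate filament of blood and stromal cells, read 13.22 and 13.16 in THP1, against 7.08 and 7.28 in HCT116 and 7.47 and 7.56 in Hke3. TWIST1 was higher by 3.96 ± 0.09, SNAI1 was lower by 0.86 ± 0.10 log2, and the other 4 of 7 did not pass. Epithelial growth factor receptors were lower in THP1 for 10 of 11 members, each by at least 4-fold (median -3.10 log2). MET, the HGF receptor, read 4.98 and 5.11 in THP1, against 12.25 and 12.40 in HCT116 and 12.48 and 12.53 in Hke3. EGFR differed by -5.54 ± 0.08, ERBB3 by -4.81 ± 0.10, FGFR3 by -4.61 ± 0.09 and ERBB2 by -2.94 ± 0.11. INSR, the insulin receptor, overlapped between the groups.

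Of 27 soluble ligands, 9 (33.3%) were higher and 6 (22.2%) were lower in THP1, shares not far from the 20.5% and 28.3% of all genes. EREG, an EGFR ligand, had the second largest difference of the genes lower in THP1, at 3.87 and 3.62 in THP1, against 12.25 and 12.33 in HCT116 and 12.61 and 12.65 in Hke3. TGFA, another EGFR ligand, differed by -5.88 ± 0.09 and LIF by -4.02 ± 0.08. CCL5 was higher in THP1 by 3.55 ± 0.30, CCL2 by 2.62 ± 0.15, TNFSF10 (TRAIL) by 4.0 ± 0.08 and TGFB1 by 1.44 ± 0.12. SPP1, osteopontin, read 11.37 with vitamin D3 and 8.89 alone in THP1, against 5.43 and 5.08 in HCT116 and 7.01 and 6.68 in Hke3, and differed by 4.08 ± 0.45. IL1B (0.93 ± 0.18) and TNF (0.70 ± 0.10) passed at small differences, and IL6, HGF, OSM and CSF1 did not pass.

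Cytokine and chemokine receptors were higher in THP1 for 15 of 26 members and lower for 6 (median 2.25 log2). The fractalkine receptor CX3CR1 (7.46 ± 0.09), CXCR4 (4.99 ± 0.13), IL6R (4.82 ± 0.09) and the colony-stimulating factor receptors CSF2RB (5.63 ± 0.09), CSF2RA (3.17 ± 0.10) and CSF1R (3.16 ± 0.08) were higher. CSF1R read 10.03 and 9.74 in THP1, against 6.96 and 6.72 in HCT116 cells, and 6.68 and 6.54 in Hke3. The lower members include OSMR (-5.58 ± 0.09), LIFR (-3.94 ± 0.09), IL1R1 (-2.69 ± 0.08) and the TRAIL receptors TNFRSF10B (-1.98 ± 0.12) and TNFRSF10A (-1.77 ± 0.08). For TRAIL, the ligand was thus higher and the receptors TNFRSF10A and TNFRSF10B lower in THP1. The shared receptor chain IL6ST (0.18 ± 0.08) did not pass and was bright in all 3 lines.

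**Figure D4:**
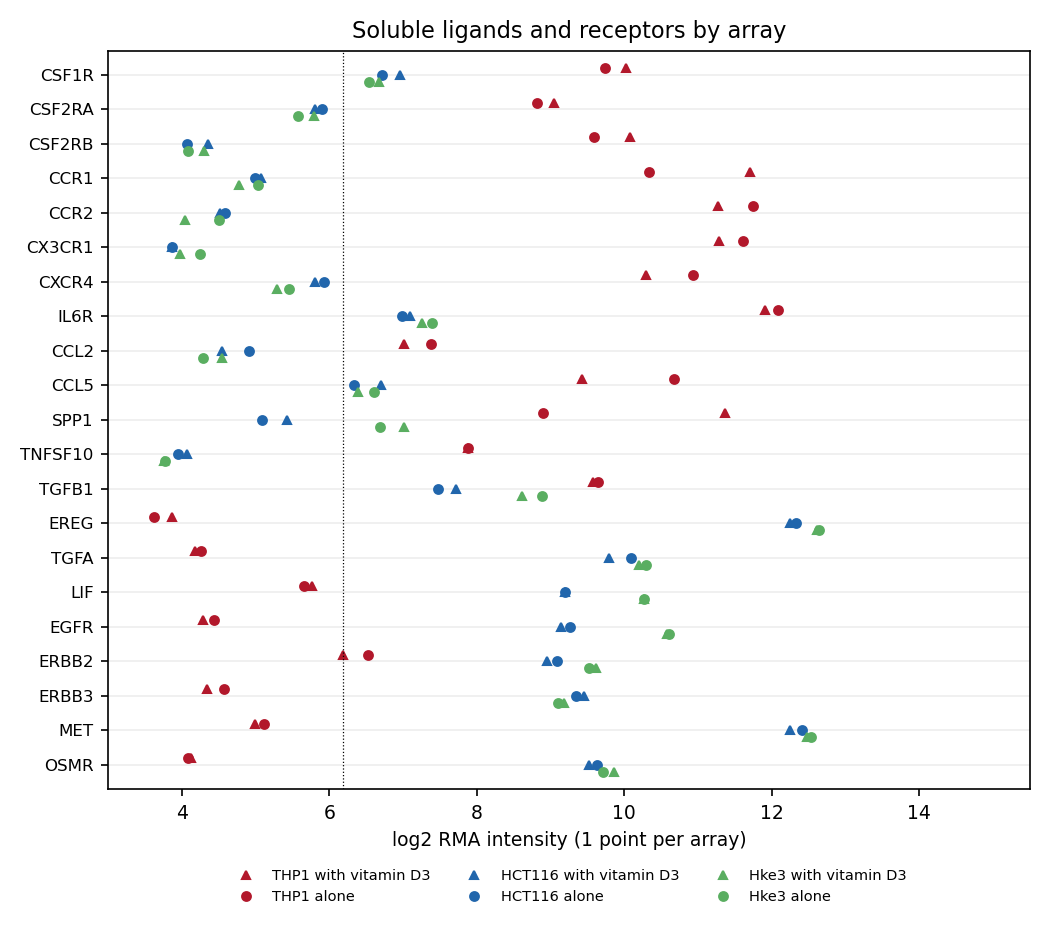
Log2 RMA intensity (horizontal axis) of 21 ligand and receptor genes (rows) on each of the 6 arrays, with triangles for arrays with vitamin D3, circles for arrays alone, and the dotted line at 6.18. From CSF1R down to TGFB1 both THP1 points lie right of all colon cancer points, and from EREG down to OSMR they lie left of them.

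The 25 largest differences of each sign reached beyond the lists. Among the 25 genes higher in THP1, from 7.08 to 10.35 log2, 12 belong to the monocytic lists. The others include PLAC8 (8.33 ± 0.08), ADAMDEC1 (8.55 ± 0.51), the interferon-inducible nuclear protein MNDA (7.55 ± 0.18), the aminopeptidase ANPEP (CD13, 7.50 ± 0.09), the neuronal bHLH factor BHLHE22 (7.87 ± 0.12) and the immunoproteasome subunit PSMB8 (7.08 ± 0.09). ADAMDEC1, a metalloprotease of macrophages, read 13.46 with vitamin D3 and 11.15 alone in THP1, against 3.62 to 3.85 on the colon cancer arrays. Among the 25 genes lower in THP1, from -8.80 to -7.17 log2, 10 belong to the epithelial lists. ARHGAP29 led them, at 4.43 and 3.93 in THP1, against 12.92 and 13.00 in HCT116 and 12.95 and 13.07 in Hke3. Others are the EGFR feedback inhibitor ERRFI1 (-8.38 ± 0.08), the Hippo effector YAP1 (-7.21 ± 0.08), the chromatin protein HMGA2 (-8.09 ± 0.08), the retinal dehydrogenase ALDH1A3 (-7.90 ± 0.08) and the Wnt inhibitor DKK1 (-7.36 ± 0.14). MAGEA6 (-7.85 ± 0.11), a cancer-testis antigen, shares near-identical sequence with its family, so its probe set may read other members.

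Most of these genes differed less than 2-fold between the 2 colon cancer lines, but the epithelial share higher in Hke3 was above that of all genes. Of the 128 monocytic genes, 2 were at least 2-fold higher and 1 was at least 2-fold lower in Hke3 than in HCT116, and of the 116 epithelial genes 6 were higher and 0 were lower. Over all 19775 genes, 164 (0.829%) were higher and 66 (0.334%) were lower. The 9 genes are KLF2, RUNX2, SYK, KRT7, ITGA2, ITGA3, ITGB4, EHF and EGFR, picked after their values were seen. KRT7 read 10.68 and 10.71 in Hke3, against 8.72 and 8.93 in HCT116, and RUNX2 read 9.36 and 9.34, against 7.53 and 7.61. EGFR read 10.58 and 10.60 in Hke3, against 9.14 and 9.26 in HCT116. For all 9, THP1 lay outside the range of both colon lines. Of the hemidesmosome and basement membrane genes, 3 of 7 were higher in Hke3, and of the ligands 4 of 27. Of these ligands, CXCL8, a neutrophil chemokine, read 7.75 and 7.39 in Hke3, against 4.62 and 5.14 in HCT116.

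Large differences with vitamin D3 were more numerous in THP1 than in the colon lines. At least 2-fold differences between the array with vitamin D3 and the array alone were seen for 293 genes (1.48%) in THP1, 1 gene (0.00506%) in HCT116 and 7 genes (0.0354%) in Hke3, with 1 pair per line and no test. The difference between the THP1 pair and the mean of the colon pairs passed the threshold for 759 genes (3.84%), 546 (2.76%) higher and 213 (1.08%) lower in THP1, by limma with 1 residual degree of freedom. With HCT116 and Hke3 as one group, 14 genes passed, all of them higher in THP1. The error of this comparison is the disagreement between HCT116 and Hke3, which limma moderates towards the spread shared by all genes. No second THP1 pair bears on it.

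The largest responses included monocyte genes. CD14 differed by 5.47 log2 between the THP1 arrays (13.77 with vitamin D3 and 8.29 alone), by 0.28 in HCT116 and by -0.25 in Hke3. CAMP, a textbook target of the vitamin D receptor, differed by 5.41 in THP1 (12.61 and 7.20), by 0.00 in HCT116 and by -0.02 in Hke3. FBP1, a gluconeogenic enzyme, differed by 5.49, SULT1C2, a sulfotransferase, by 6.28, ORM1, an acute-phase protein, by 5.03 and TREM1 by 4.64. Each of these 6 responses exceeded that of the colon lines, by 4.68 to 5.81 log2 (adjusted p from 4.14e-06 to 3.07e-05). CYP24A1, which degrades vitamin D and is a sensitive receptor target, responded in all 3 lines. It read 10.40 with vitamin D3 and 4.51 alone in THP1, 11.43 and 9.99 in HCT116, and 12.35 and 10.89 in Hke3, so the colon lines were high with or without vitamin D3. Its THP1 values overlapped with those of HCT116, and its mean difference of -3.71 ± 0.92 lost its call without HCT116_alone (-3.15, adjusted p = 0.0516). It was -1.49 without THP1_alone and -5.93 without THP1_VitD3.

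The receptor itself did not pass the threshold. VDR read 7.94 and 8.19 in THP1, against 8.10 and 8.33 in HCT116 and 8.36 and 8.16 in Hke3, a difference of -0.17 ± 0.12 (adjusted p = 0.299). CYP27B1, which makes the hormone, was lower in THP1 by 2.07 ± 0.08 log2, and the receptor partner RXRA was higher by 0.91 ± 0.08. CYP27A1 (0.39 ± 0.09) lost its call without HCT116_alone (0.33) or Hke3_VitD3 (0.36). In the other direction, 6 of the 10 MHC class II genes responded lower in THP1 than in the colon lines (median THP1 difference -0.75 log2), against 213 of all genes (1.08%). With HCT116 and Hke3 as one group these 6 calls were lost, since 0 genes then passed as lower. HLA-DRA differed by -3.10 between the THP1 arrays and by -0.02 and -0.03 in HCT116 and Hke3, and HLA-DPA1 by -2.31, -0.13 and -0.24. Outside that list, AKR1C2 differed by -2.66 in THP1, VAT1L by -2.44, ONECUT2 by -2.32 and CCDC26 by -2.24. Their calls against the colon lines were lost in the one-group fit too. The neutrophil chemokines CXCL8 (4.41) and CXCL1 (4.13) and the complement receptor C5AR1 (2.11) differed upwards in THP1, and were picked after their values were seen.

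**Figure D5:**
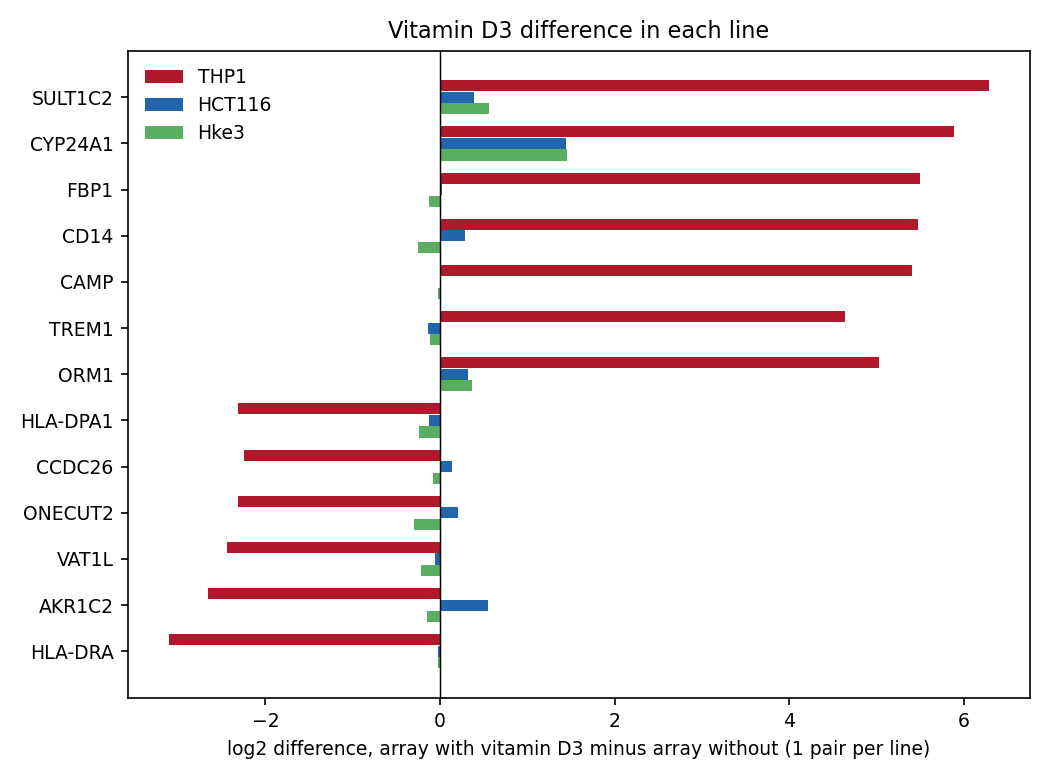
Log2 difference between the array with vitamin D3 and the array alone (horizontal axis, 1 pair of arrays per line) for 13 genes (rows), with bars for THP1 (red), HCT116 (blue) and Hke3 (green). The upper 7 genes have long bars to the right in THP1, the lower 6 have bars to the left, and only CYP24A1 has bars of over 1 in all 3 lines.

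Housekeeping genes give a scale for these numbers at bright levels only, since all 10 measured were bright in both groups. Of the 10, 4 (40%) were higher and 4 (40%) were lower in THP1, with a median of 0.03 log2. Over all genes the shares were 20.5% higher and 28.3% lower. Their differences ran from -0.84 (POLR2A) to 1.48 (GUSB), so small differences past the threshold were common among genes used as controls. SDHA (0.43 ± 0.12) lost its call without HCT116_VitD3 (0.39), Hke3_VitD3 (0.37) or THP1_VitD3 (0.22).

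Finally, the cocultured colon cancer arrays were checked for THP1 RNA. Of the monocytic genes, 54 were bright in THP1 and dim in the colon cancer monocultures. On HCT116 with THP1 and vitamin D3, HCT116 with THP1, Hke3 with THP1 and vitamin D3, and Hke3 with THP1, 9, 15, 10 and 10 of them lay above the highest colon cancer monoculture, and 0 did so by 2-fold. Those shares, 16.7%, 27.8%, 18.5% and 18.5%, stood beside 17.2%, 25.1%, 14.2% and 16.4% of all 7184 genes dim in the colon cancer lines. The median level of the 54 genes was 9.96 to 10.05 log2 on the THP1 arrays and 4.98 to 5.10 on the cocultured arrays.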

How the data were processed

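The deposited values are log2 intensities of probe sets. The submitters' processing notes name RMA and the R package affy, without versions. RMA corrects background, quantile-normalises and summarises probes, which forces arrays of different cell types to 1 distribution. No reads or detection calls come with these files, and the number of arrays limits the precision.

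Arrays were grouped by title. Of 54675 probe sets, 41097 map to 1 symbol, 1801 to several (left out) and 11777 to none. Each of 19775 genes took its probe set with the highest mean over the 6 monoculture arrays. None of the 220 genes named by the rule below had another bright probe set that differed the opposite way by over 1 log2. Genes named outside that rule were not checked in this way. The fit used limma 3.58.1 under R 4.3.3, with line and vitamin D3 as terms and 2 residual degrees of freedom. THP1 was set against the mean of HCT116 and Hke3. Tests were two-sided, with p-values adjusted over all genes by the Benjamini-Hochberg method. The ± values are its standard errors. A second model gave the vitamin D3 difference of THP1 minus that of the colon lines. On simulated data of 19775 genes, the fit of THP1 against the colon cancer cells recovered 67% of 2-fold and 91.8% of 4-fold changes. Of its calls, 2.8% were false. The simulation held no vitamin D3 effect and changed far fewer genes than the 48.8% called in the data. Its figures therefore do not carry over to the data.

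The members and the 25 gene lists (357 of 395 genes measured) were chosen with earlier results of these data known. The rule named the 25 largest differences of each sign that did not overlap and were above the median of all values on the brighter side, in each list up to 8 members, by call and then by size, the 7 markers of the question, VDR, CYP24A1, and the 6 largest vitamin D3 differences of each sign. Members named because they did not pass or went against their list lie outside this rule and were picked after their values were seen. Promoter sequences are RefSeq's (GRCh38.p14). Plots were made in Python 3.11.15 (matplotlib 3.10.9).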

Additional observations from a re-analysis of the deposited data

Results flagged for a closer look

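The vitamin D3 difference in THP1 stood apart from that in the colon cancer lines, by a test of the difference itself, for 44 of 220 named genes. Over all 19775 genes, 759 (3.84%) did so. The named genes include the 6 largest of each sign, picked from this same comparison, so the 2 counts are not alike. Those 6 of each sign follow, as the vitamin D3 difference in THP1 minus the mean of that in HCT116 and Hke3. It was 5.81 log2 for SULT1C2, 5.54 for FBP1, 5.45 for CD14, 5.42 for CAMP, 4.77 for TREM1 and 4.68 for ORM1. It was -3.08 for HLA-DRA, -2.85 for AKR1C2, -2.31 for VAT1L, -2.28 for ONECUT2, -2.27 for CCDC26 and -2.13 for HLA-DPA1. With HCT116 and Hke3 as one group these 6 negative differences lost their calls, since 0 genes then passed as lower. Each rests on 1 pair of arrays per line.

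Of the monocytic genes checked on the cocultured arrays, LYZ showed the largest excess, with its highest cocultured colon cancer array 0.81 log2 above its highest colon cancer monoculture.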

How the results depend on the processing

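No paired analysis was possible because each condition has 1 array and no replicate numbers join arrays. The fit matches arrays on vitamin D3 as a term, and without that term 9804 genes were called. Over the 5 counts of genes, 71 of 84 values under the alternatives lay within 1.5 times the main count. THP1 against the colon cancer cells called 9658 genes, and 19147 of 41097 probe sets each on its own, 2793 genes with a minimum of 2-fold (limma's treat), 5008 with the 3 arrays without vitamin D3 and 5346 with the 3 arrays with it. The count at least 4-fold was 3101 with each probe set on its own, that against HCT116 was 17605 with probe sets and 2606 with treat, and that against Hke3 was 18313 and 2769. The vitamin D3 difference between THP1 and the colon lines called 1298 genes above the 75th percentile of all values (8.13 log2), 2359 with trend and robust fitting, 57 with treat and 14 with HCT116 and Hke3 as one group. Leaving out each array gave 8351 to 9841 genes, 1694 to 1737 at least 4-fold, 6580 to 9535 against HCT116 and 6981 to 9621 against Hke3. Where that left THP1 or a colon line with 1 array, the lone array was assumed to vary like the others. Among 205 results of named genes past the threshold, 3795 of 3937 values kept sign and call, 142 lost the call and 0 reversed. SULT1C2, not past the threshold at 0.74, was -2.17 without THP1_VitD3 and with only the 3 arrays without vitamin D3, and 3.64 without THP1_alone. Its THP1 arrays with and without vitamin D3 lay far apart, so each of these values follows the THP1 array that was kept. For ACTB and HPRT1 the call was lost without both HCT116 arrays (0.18 and -0.18). Leaving out both arrays of a line and the count at least 4-fold were added after seeing the data. The lone line, the different media and the absence of replicates limit what these differences stand for.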
